A study of Mus musculus with 2 samples.

Results

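The postsynaptic density scaffolds examined here are 9 genes taken by symbol from 55536 annotated mouse genes: Dlg1, Dlg2, Dlg3 and Dlg4, Shank1, Shank2 and Shank3, and Dlgap1 and Dlgap3. Together they have 107 annotated transcripts. Their levels, the ratios between paralogs and the share of each gene's RNA carried by each transcript were measured in left cerebral cortex. The tissue came from male B6CASTF1/J mice, 25 days old, F1 hybrids of C57BL/6J with CAST/EiJ, and the labels name no treatment. The data are 2 total RNA libraries of 1 group, called replicate 1 and replicate 2 after the labels, each made from 300 ng of RNA. Both samples carry the same donor entry, and treating them as separate animals rests on their biobank numbers and on the label of biological replicate. With 1 group of 2 there was no test between conditions and no p-value, and every statement of higher or lower compares these 2 libraries.

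The postsynaptic density is the protein layer under the membrane of excitatory synapses. Dlg proteins lie nearest the membrane and hold glutamate receptors, channels and adhesion proteins through PDZ domains. Dlgap proteins, also known as SAPAP or GKAP, bind the guanylate kinase-like domain of Dlg proteins and, by their C terminus, the PDZ domain of Shank proteins. Shank proteins lie deeper and connect to Homer and to the actin cytoskeleton. In some Dlg genes the 5′ exons decide whether the protein starts with cysteines that can be palmitoylated, which anchor it to membrane, or with another N terminus.

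Levels are in TPM, a unit scaled to a fixed total per library that divides reads by transcript length and so allows genes to be compared. Expected counts in the gene table summed to 30503944 (replicate 1) and 33263801 (replicate 2), and each of the 9 genes had between 6312 and 42474 of them per library. A second transcript file, made directly from the reads, was summed per gene as another estimate of the same libraries. Its TPM were higher for most genes, with a median ratio to the gene table of 1.57 over 12487 genes averaging 100 counts or more. In the gene table, 33.3% and 33.7% of all TPM belonged to the small RNAs Rn7s1, Rn7s2 and Rn7sk, which had almost none in the second file. Of markers of the tissue, 6 glutamatergic neuron genes summed to 3104 and 2968 TPM. Of 3 cerebellar genes, Gabra6 stood at 0.02 TPM and Pcp2 at 0.13 TPM in both libraries, and Cbln1 at 4.16 and 6.21 TPM.

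Each of the 9 scaffold genes passed the detection limit of 1 TPM in both animals, and each also passed 5 TPM. They ranked between the 88.7th percentile (Dlg3) and the 99.1st (Dlg4) of the genes detected in both. Summed, they gave 1579.04 TPM in replicate 1 and 1475.97 in replicate 2. The Dlg family contributed 709.95 ± 20.7 TPM (SD, n = 2), the Shank family 439.98 ± 36.4, and Dlgap1 with Dlgap3 377.6 ± 15.8. Because the tissue is a bulk sample, fewer cells of a type and less RNA per cell cannot be told apart in any of these levels.

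**Figure D1:**
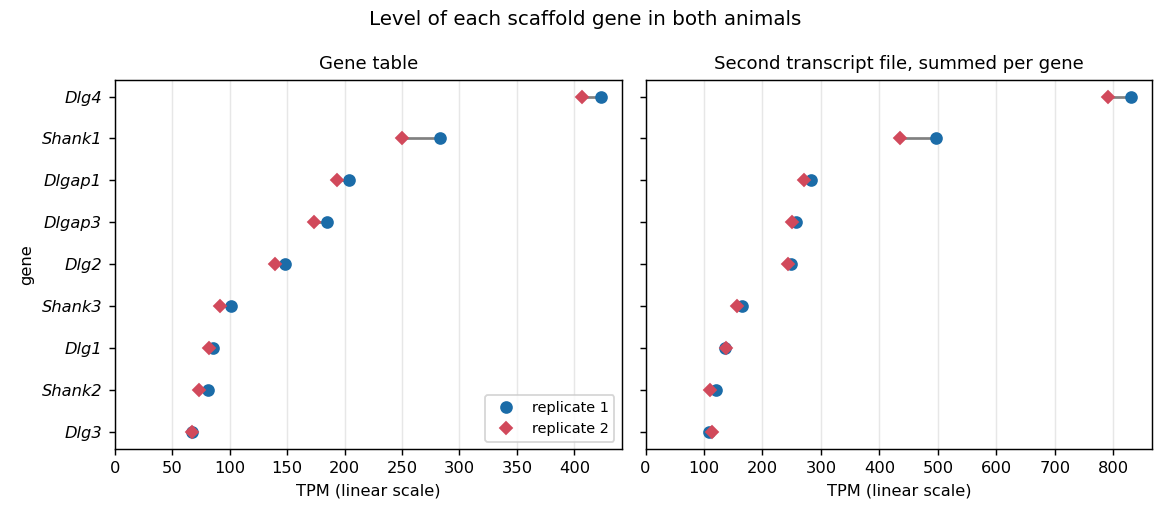
TPM (linear scale) of each scaffold gene in the gene table (left) and in the second transcript file (right), 1 point per animal with a line joining the pair. Dlg4 is highest in both panels, at 423.32 and 406.86 TPM on the left, and the lines of Shank2 and Dlg3 overlap only on the right.

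Dlg4, which encodes PSD-95, the main Dlg protein of mature excitatory synapses, was the most abundant of the 9. It stood at 423.32 TPM in replicate 1 and 406.86 in replicate 2, a mean of 415.1 ± 11.6 (SD, n = 2). Dlg4 lies on mm10 at chr11:70016942-70047522, plus strand. Dlg2, which encodes PSD-93, followed at 148.36 and 139.52 TPM (143.9 ± 6.25) and spans 1972576 bases at chr7:90476672-92449247, plus strand. Dlg1, which encodes SAP97, a protein also found outside synapses, had 85.33 and 81.98 TPM (83.7 ± 2.37) at chr16:31663443-31875129, plus strand. Dlg3, which encodes SAP102, the Dlg protein known for its place in young synapses, had 67.59 and 66.94 TPM (67.3 ± 0.46). Dlg3 lies at chrX:100767722-100818410, plus strand. The ranges of the 4 genes did not overlap in either file.

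Of the Dlg family's TPM, Dlg4 held 58.5%, Dlg2 20.3%, Dlg1 11.8% and Dlg3 9.48%, as means over the animals. The ratio of Dlg4 to Dlg3 was 6.26-fold in replicate 1 and 6.08-fold in replicate 2, the widest of the 10 ratios within families. Dlg4 over Dlg1 was 4.96-fold in both animals, and Dlg4 over Dlg2 was 2.85-fold and 2.92-fold. Replicate 2 less replicate 1, the log2 ratio differed by -0.043 for Dlg4 over Dlg3 and by 0.031 for Dlg4 over Dlg2, far less than the ratios themselves. The second file gave wider ratios for Dlg4, 7.30-fold over Dlg3 and 5.91-fold over Dlg1. Dlg4 stood there at 1.95 times its level in the gene table, Dlg3 at 1.65 times and Dlg1 at 1.64 times, beside the median of 1.57. The smallest ratio in the family was that of Dlg1 over Dlg3, 1.26-fold and 1.22-fold. Counting TPM from protein-coding transcripts only, its log2 shrank from 0.31 to 0.058.

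The Dlgap genes lay between Dlg4 and Dlg2. Dlgap1 stood at 204.2 and 193.4 TPM (198.8 ± 7.64, SD, n = 2) and spans 852341 bases at chr17:69969073-70821413, plus strand. Dlgap3 stood at 184.54 and 173.01 TPM (178.8 ± 8.15) and lies at chr4:127169204-127237022, plus strand. Dlgap1 was higher in each animal, by 1.11-fold and 1.12-fold, and by 1.09-fold on average in the second file. The 2 ranges were apart by 8.86 TPM in the gene table. With protein-coding transcripts only, the log2 ratio shrank from 0.15 to 0.020, so most of this ratio came with transcripts not annotated as coding. Their relatives Dlgap2 and Dlgap4, which were outside the 9 genes, stood at 53.7 ± 2.25 and 105.7 ± 0.474 TPM, and Dlgap5 was at 0.16 TPM, below detection.

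Shank1 was the highest of the Shank genes, with 283.29 TPM in replicate 1 and 249.6 in replicate 2 (266.4 ± 23.8, SD, n = 2). It lies at chr7:44310253-44360572, plus strand. Shank3, at chr15:89499623-89560261 on the plus strand, had 101.44 and 91.68 TPM (96.6 ± 6.90). Shank2, at chr7:144001928-144424494 on the plus strand, had 80.97 and 72.98 TPM (77.0 ± 5.65). All 3 encode multidomain scaffolds with ankyrin repeats, an SH3 domain, a PDZ domain and a SAM domain in their long forms. Shank1 held 60.5% of the family's TPM, Shank3 22.0% and Shank2 17.5%.

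Shank1 exceeded Shank2 by 3.50-fold and 3.42-fold, and Shank3 by 2.79-fold and 2.72-fold. Shank3 exceeded Shank2 by 1.25-fold and 1.26-fold. These ratios moved little between the animals, by -0.037 in log2 for Shank1 over Shank3 and by less for the other two. By the second file the ratio of Shank1 to Shank2 was 4.02-fold and that of Shank3 to Shank2 1.39-fold. With protein-coding transcripts only, the log2 ratio of Shank3 to Shank2 shrank from 0.33 to 0.078. Over all transcripts, the 10 ratios within families had the same direction in both animals and in both files. With coding transcripts only, none turned in the first file. In the second file, coding transcripts held 67.0% and 62.8% of Shank3's TPM, against 97.2% and 97.5% of Shank2's. Coding Shank3 stood below coding Shank2 there in both animals, and coding Dlgap1 was slightly below coding Dlgap3 in replicate 1.

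**Figure D2:**
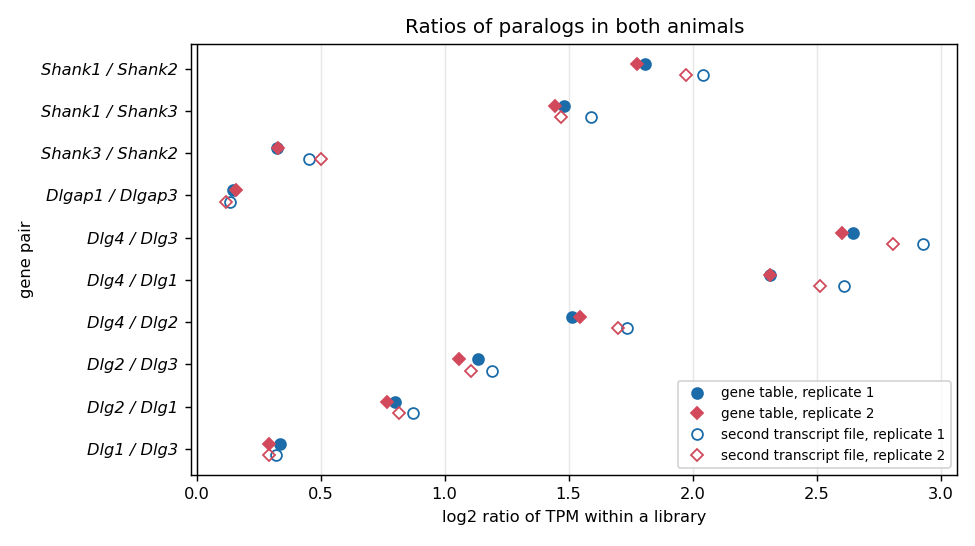
Log2 ratio of TPM between 2 genes of a family within a library, for the gene table (filled) and the second transcript file (open), 1 point per animal. All points lie above 0, from Dlgap1 over Dlgap3, with 0.15 and 0.16 in the gene table, to Dlg4 over Dlg3, with 2.65 and 2.60.

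Over all 9 genes the order of mean level was Dlg4, Shank1, Dlgap1, Dlgap3, Dlg2, Shank3, Dlg1, Shank2 and Dlg3. In the gene table no neighbours in this order overlapped, with the narrowest gap, 1.01 TPM, between Dlg1 and Shank2. This pair changed places with protein-coding transcripts only, at 67.54 and 62.72 TPM for Dlg1 and 78.2 and 71.03 for Shank2. By the same coding TPM, Dlg1 overlapped with Dlg3, at 62.74 and 62.34, and Shank2 with Shank3, at 84.55 and 73.24. Dlgap1, at 177.9 and 169.7, overlapped with Dlgap3, at 175.79 and 166.99. The second file left a gap of -2.12 TPM, an overlap, between Shank2 and Dlg3, and Dlgap3 and Dlg2 were apart by only 0.18 TPM. Shank2 and Dlg3 were therefore apart in the gene table, by 5.39 TPM, but not in the second file. Deposited intervals of TPM, whose level the files do not state, surround the posterior mean estimate and not the TPM itself. The posterior mean lay inside them for 9 of 9 genes, while the TPM of 4 of 9 lay above the upper bound in each library. Shank1 in replicate 1, for example, had 283.29 TPM, a posterior mean of 274.51 and an interval from 268.0 to 281.2.

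Whether reads could be shared between these genes was looked at in their annotated transcripts. No run of 31 bases was shared by any 2 of the 9 genes, except 1 such run between Dlg1 and Dlg2 and 3 between Dlg4 and Shank2. The paralogs are therefore distinct over nearly all of their length at that word size. Dlg2 contains the annotated gene Gm45159 on its own strand, which had 688 and 739 expected counts against 16856 and 17852 for Dlg2. Opposite-strand genes over Dlgap1, Shank1 and Shank3 had at most 21 counts.

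Levels of a gene add up over its transcripts, and 36 of the 107 transcripts carried at least 10% of their gene's TPM in one of the transcript files. The leading transcript was the same in both animals for 8 of the 9 genes, and over all 11010 genes with at least 2 transcripts and 100 counts or more on average it was the same for 90.4%. It was the same in both animals and both files for 8 of 9, beside 69.1% of all such genes. The exception was Shank2, where Shank2-202 led in replicate 1 and Shank2-205 in replicate 2 by the TPM of the first file. Within the second file the leader was the same in both animals for 9 of 9, beside 87.8% of all such genes. Transcripts annotated as protein coding held between 73.1% (Dlg2, replicate 1) and 99.3% (Dlg4, replicate 1) of a gene's TPM. Their median over the 9 genes was 87.4%, beside 90.3% over 11824 protein-coding genes.

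**Figure D3:**
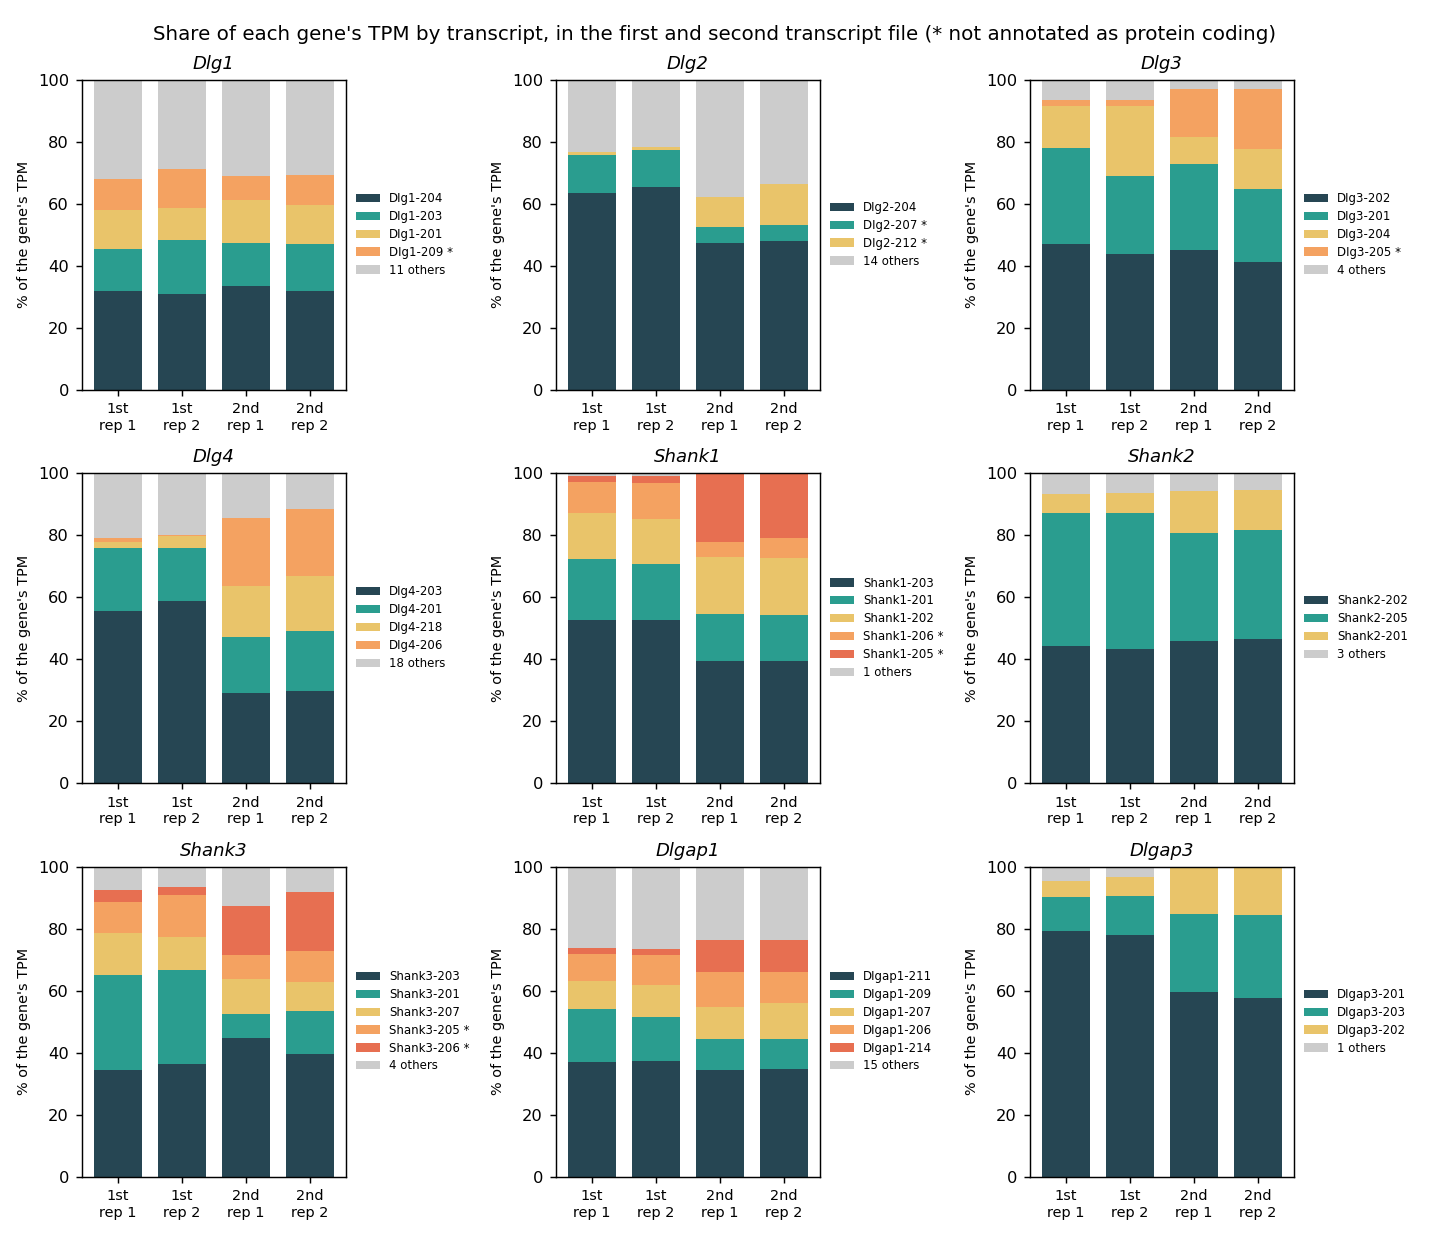
Percent of each gene's TPM by transcript, in bars for the first and second transcript file (1st, 2nd) and each animal, with transcripts under the naming limit summed in grey. In Dlg4 the bars differ more between the files than between the animals, and Dlg4-203 holds 57.2% on average in the first file and 29.6% in the second.

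The first coding bases of the main Dlg transcripts show how the N termini differ. They are given here as the first 60 coding bases, 5′ to 3′, from the GENCODE M21 transcripts, with the start codon and every in-frame cysteine codon in capitals.
Dlg4-203: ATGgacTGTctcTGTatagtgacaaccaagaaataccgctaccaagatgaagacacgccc
Dlg4-201: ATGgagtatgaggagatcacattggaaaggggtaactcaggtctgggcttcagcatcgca
Dlg2-204: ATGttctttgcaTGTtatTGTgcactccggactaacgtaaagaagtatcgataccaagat
Dlg2-217: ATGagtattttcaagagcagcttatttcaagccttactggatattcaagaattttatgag
Dlg1-204: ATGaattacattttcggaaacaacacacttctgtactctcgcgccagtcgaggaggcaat
Dlg1-203: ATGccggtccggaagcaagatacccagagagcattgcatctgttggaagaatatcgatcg
Dlg3-202: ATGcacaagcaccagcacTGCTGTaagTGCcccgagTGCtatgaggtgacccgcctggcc
Dlg4-203 has cysteine codons at positions 3 and 5, and Dlg2-204 at 5 and 7, counting the start codon as 1. Dlg3-202 has 4, at positions 7, 8, 10 and 13. The other 4 starts have none in this window. Whether any of these cysteines is palmitoylated was not measured.

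Dlg4-203 begins its coding sequence in the exon part at chr11:70018920-70018949 and Dlg4-201 at chr11:70030625-70030654. Dlg4-203 carried 55.6% of the gene's TPM in replicate 1 and 58.8% in replicate 2 (57.2 ± 2.26%, SD, n = 2). Dlg4-201 carried 20.4% and 17.1%. The animals gave the same order of these transcripts. The second file gave Dlg4-203 29.2% and 29.9%, Dlg4-201 18.0% and 19.1%, and Dlg4-218, which starts near Dlg4-201, 16.4% and 18.0%. That file also gave 22.1% and 21.4% to Dlg4-206, a 540-base transcript without a complete coding sequence that had 1.10% and 0.31% in the first.

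To compare 5′ ends, transcripts with an annotated start and stop codon were grouped by their first base, within 1000 bases of each other, and each group was given as a percent of their TPM. The Dlg4 group that holds Dlg4-203 took 72.4% and 74.3% in the first file, and the group of Dlg4-201 and Dlg4-218 took 25.2% and 23.7%. By the second file the former took 48.0% and 46.2% and the latter 50.1% and 52.5%. Which of the 2 starts led in Dlg4 thus depended on the file and not on the animal. For the other 8 genes the leading group was the same in both files.

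Dlg2-204 carried 63.5% and 65.5% of Dlg2's TPM (64.5 ± 1.37%, SD, n = 2), and 47.5% and 48.1% in the second file. Its start group, 613475 bases downstream of the first one, took 90.7% and 92.6% of the complete coding TPM. The first group, with Dlg2-217, took 7.64% and 6.08%. Another group, with Dlg2-203, took 1.68% and 1.30%. The group of Dlg2-204 was therefore the main one in both animals, and it took 88.4% on average by the second file. Transcripts not annotated as protein coding were a larger part of Dlg2 than of the other 8 genes. Dlg2-207, of 964 bases, held 12.1% and 11.998% of its TPM but 1.85% and 1.83% of its reads. Dlg2-212, of 842 bases, held 0.92% and 0.74%, and 9.57% and 13.3% by the second file.

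Dlg1 had 2 start groups of similar size, 90907 bases apart. The upstream one, with Dlg1-203 and 4 other transcripts, took 59.4% and 59.7% of the complete coding TPM, and Dlg1-204 alone made up the other 40.6% and 40.3%. The upstream group took 58.1% and 58.0% by the second file. Dlg1-204 was the leading single transcript, at 31.7% and 30.8% of all Dlg1 TPM, with Dlg1-203 at 13.6% and 17.3% and Dlg1-201 at 12.6% and 10.3%. Dlg1-209, annotated for nonsense-mediated decay, held 10.03% and 12.7%.

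Dlg3 used 1 start for nearly all of its complete coding RNA, 98.7% and 98.2%. Dlg3-202 led with 47.0% and 43.8% of TPM, before Dlg3-201 with 30.9% and 25.2% and Dlg3-204 with 13.7% and 22.4%. The deposited interval of Dlg3-204 ran from 0.61 to 14.7 TPM in replicate 1 and from 9.84 to 19.4 in replicate 2, so the 2 intervals overlapped. These 3 transcripts differ by short exons inside the coding sequence. Dlg3-205, of 559 bases and without coding sequence, had 1.79% and 2.14%, and 15.4% and 19.2% by the second file.

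Alternative coding exons were followed as the percent of complete coding TPM whose transcripts carry the exon, among transcripts that span it. In Dlg3 a 54-base exon at chrX:100771307-100771360 was carried by 66.3% and 72.4%. A 42-base exon at chrX:100811502-100811543 was carried by 52.0% and 48.8%. In Dlg1 a 99-base exon at chr16:31771757-31771855 was carried by 83.8% and 86.5%, and a 36-base exon at chr16:31854653-31854688 by 45.3% and 46.8%. Of these 4, the 36-base and 42-base exons lay near the middle of the scale in both animals. They stood at 49.3% and 54.3% on average by the second file.

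Dlg1 and Dlg2 each have a 100-base exon that replaces a shorter one in the 3′ part of the coding sequence. The 2 are shown because they are the same at 87 of 100 bases in a global alignment, marked by capitals.
Dlg1 exon at chr16:31846834-31846933: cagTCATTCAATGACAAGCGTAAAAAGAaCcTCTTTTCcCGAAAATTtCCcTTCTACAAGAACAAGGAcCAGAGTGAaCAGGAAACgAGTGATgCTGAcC
Dlg2 exon at chr7:92417224-92417323: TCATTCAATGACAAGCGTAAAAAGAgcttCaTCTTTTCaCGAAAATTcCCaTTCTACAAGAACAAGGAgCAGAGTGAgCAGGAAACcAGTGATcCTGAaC
Both were the minor choice. The Dlg1 exon was used in place of a 34-base exon in 9.09% and 4.75% of complete coding TPM, and in 12.3% and 8.43% in the second file. The Dlg2 exon was used in place of a 46-base exon in 3.77% and 3.57%, and in 11.6% and 11.7% in the second file. The share in Dlg1 rests on 1 transcript, Dlg1-202, with 6.06 and 2.98 TPM.

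Shank1 had 2 short coding exons that some transcripts lack, and Shank2 had 1. They are printed in capitals between 12 flanking coding bases on each side.
Shank1, 27-base exon at chr7:44334033-44334059: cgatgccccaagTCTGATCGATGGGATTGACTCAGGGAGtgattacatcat
Shank1, 24-base exon at chr7:44344298-44344321: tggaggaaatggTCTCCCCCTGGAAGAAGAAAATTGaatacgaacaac
Shank2, 21-base exon at chr7:144398241-144398261: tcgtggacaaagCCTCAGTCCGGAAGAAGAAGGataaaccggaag
All 3 lengths are multiples of 3. The 27-base exon was carried by 77.5% and 78.6% of complete coding Shank1 TPM and the 24-base exon by 82.9% and 83.1%. The Shank2 exon was carried by 90.2% and 89.5%. In both genes, then, most of the coding RNA carried these exons, with SDs over the animals of 0.746, 0.133 and 0.466 percentage points in this order. By the second file the 3 exons stood at 79.5%, 74.7% and 83.3% on average.

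Shank1-203, the transcript with both short exons, led with 52.7% and 52.5% of Shank1's TPM. Shank1-201, which lacks the 27-base exon, had 19.6% and 18.2%, and Shank1-202, which lacks the 24-base exon, had 14.9% and 14.4%. Shank1-203 starts 2435 bases upstream of the other coding pair and took 60.4% and 61.7% of complete coding TPM. Shank1-206, a retained-intron transcript of 987 bases, had 10.03% and 11.7%. Shank1-205, a 608-base transcript without coding sequence, had 22.1% and 21.03% by the second file, against 2.09% and 2.18% in the first. Over the 9 named transcripts shorter than 1000 bases, 5 had a higher share in the second file and 4 a lower one. A transcript could be named through either file alone, so these counts cannot show how the files treat short transcripts.

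Shank2 was carried by a pair of transcripts with different starts. Shank2-202 had 44.1% and 43.3% of its TPM and Shank2-205 had 42.9% and 43.8%, so neither led in both animals by the TPM of this file. Shank2-202 led in both by the second file, with 45.9% and 46.7% against 34.8% and 34.9%, and by reads of the first file, with 48.2% and 47.0% against 44.0% and 44.7%. Their start groups lie 108910 bases apart. The upstream one took 45.7% and 44.5% of complete coding TPM and the downstream one, which also holds Shank2-201, took 51.1% and 51.8%. The longest form, Shank2-203, with 5523 coding bases against 4416 in Shank2-202 and 3786 in Shank2-205, starts 173601 bases farther upstream and took 3.21% and 3.69%. The shorter forms thus made up nearly all of the Shank2 RNA with a complete coding sequence in these libraries. Shank2-201, the one that lacks the 21-base exon and shares the downstream start, had 6.36% and 6.59% of TPM, and 13.6% and 13.2% by the second file.

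Shank3 was the opposite in this respect: its longest forms led. Shank3-203, with 5415 coding bases, had 34.5% and 36.2% of TPM, and Shank3-201, with 5190, had 30.6% and 30.5%. The second file gave 44.6% and 39.6% to the first and 7.93% and 13.8% to the second. Both start in the same group, which took 93.3% and 96.2% of complete coding TPM. The only other complete form, Shank3-209, took 6.71% and 3.78%. Complete coding transcripts held 69.8% and 69.3% of Shank3's TPM, the lowest of the 9 genes. Of the short transcripts without a complete coding sequence, Shank3-207 had 13.6% and 10.6% and Shank3-205 had 9.97% and 13.6%. Shank3-206 had 3.83% and 2.55%, and 15.7% and 19.0% by the second file.

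Dlgap1 was spread over many transcripts. Dlgap1-211 led with 36.9% and 37.3% of TPM, followed by Dlgap1-209 with 17.2% and 14.3%. Both belong to a start group 552604 bases downstream of the first base of the gene, which took 79.2% and 77.6% of complete coding TPM. The upstream group, with the longer Dlgap1-207, took 17.2% and 17.9%. These groups took 61.8% and 22.1% on average by the second file. Dlgap1-207 had 9.01% and 10.1% of all Dlgap1 TPM and Dlgap1-206 had 8.71% and 9.86%. Dlgap1-214, from a start between those groups, had 1.92% and 1.71%, and 10.5% and 10.4% by the second file. A 30-base exon at chr17:70718196-70718225 was carried by 40.1% and 38.4% of complete coding TPM, and by 42.2% on average in the second file. By reads in place of TPM, which weights long transcripts more, that share was 26.6% and 25.1%.

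Dlgap3 was the least divided. Dlgap3-201 held 79.2% and 78.0% of TPM, Dlgap3-203 had 10.98% and 12.7%, and Dlgap3-202 had 5.12% and 5.90%. Dlgap3-201 and Dlgap3-203 have coding sequences of the same length, 2931 bases, and start 3676 bases apart. By the second file the 3 transcripts held 58.6%, 26.0% and 15.4% on average. A 33-base stretch at chr4:127235385-127235417, which depends on the acceptor site used, was carried by 94.6% and 93.9% of complete coding TPM. By the second file it was carried by 84.7% and 84.5%.

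The ends of the main Dlgap coding sequences are shown because the C terminus is the part that Shank PDZ domains bind. The last 30 coding bases and the stop codon are given, with bases the same in both in capitals.
Dlgap1-211: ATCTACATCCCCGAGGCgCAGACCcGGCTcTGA
Dlgap3-201: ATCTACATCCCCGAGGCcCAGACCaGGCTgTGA
They are the same at 30 of 33 bases. Dlgap1-210, which held 5.99% and 5.53% of Dlgap1's TPM, ends differently and has 8 of 33 bases in common with Dlgap1-211.

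**Figure D4:**
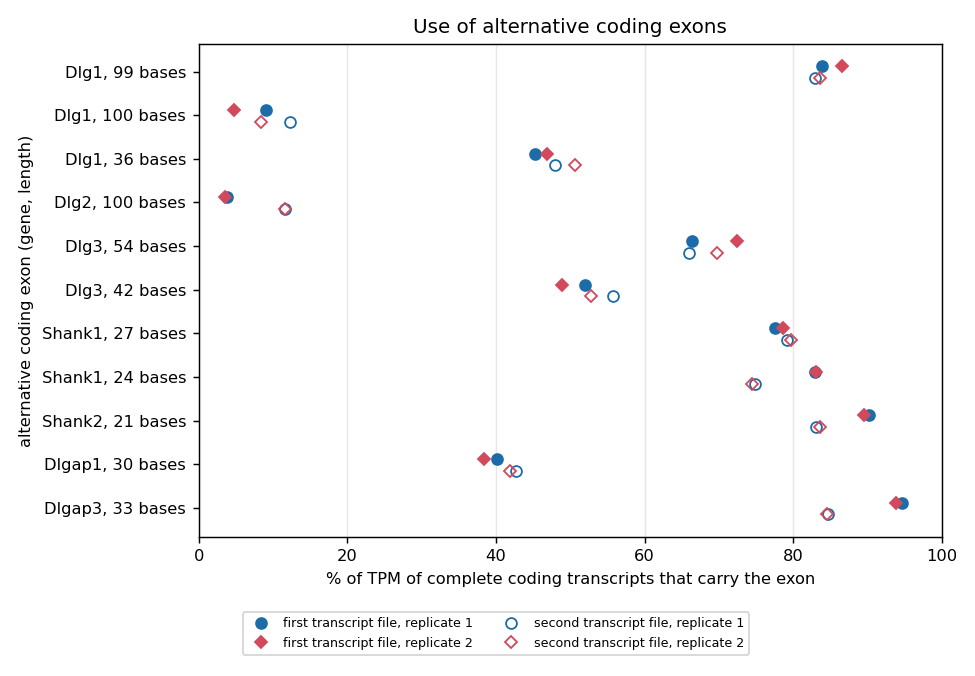
Percent of the TPM of complete coding transcripts that carry each alternative coding exon, named by gene and length, in the first (filled) and second (open) transcript file, 1 point per animal. The Shank exons and the Dlgap3 stretch lie between 74.5% and 94.6%, and the 100-base exons of Dlg1 and Dlg2 lie at 12.3% or less.

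The 9 genes were also compared between the animals, as log2 of replicate 2 over replicate 1 on TPM + 0.5. None was over 1.2-fold apart, where 19.9% of 18136 genes averaging 10 counts or more were, and 4.23% of 5627 genes averaging 1000 or more. All 9 were lower in replicate 2 by TPM, where 57.8% of the former genes and 61.8% of the latter were. Their median was -0.088, against -0.030 over genes averaging 1000 counts or more. This direction depended on the scaling. By counts scaled with TMM, a factor computed from most genes, 8 of 9 were lower, beside 45.7% of genes averaging 1000 counts or more, with a median of -0.039 against 0.0093. In the second file 7 of 9 were lower, beside 54.6%, and scaled to the spike-in RNA 1 of 9 was lower, beside 5.56% of genes averaging 1000 counts or more.

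Shank1 differed most, by -0.18 on TPM and -0.17 on TMM-scaled counts, with a 95% counting interval from -0.19 to -0.15, which covers counting error only. It was the only gene of the 9 that stayed lower under each scaling, at -0.02 with the spike-ins. Shank2 and Shank3 were lower by TPM at -0.15 each, and by TMM at -0.10 and -0.07. Dlg3 was nearest to equal by TPM, at -0.014, and Dlg1 by TMM, at -0.0010, where Dlg3 stood at 0.013. The counting intervals of Dlg1, Dlg3 and Dlgap1 include 0. Dlg4 stood at -0.057 by TPM and -0.028 by TMM.

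**Figure D5:**
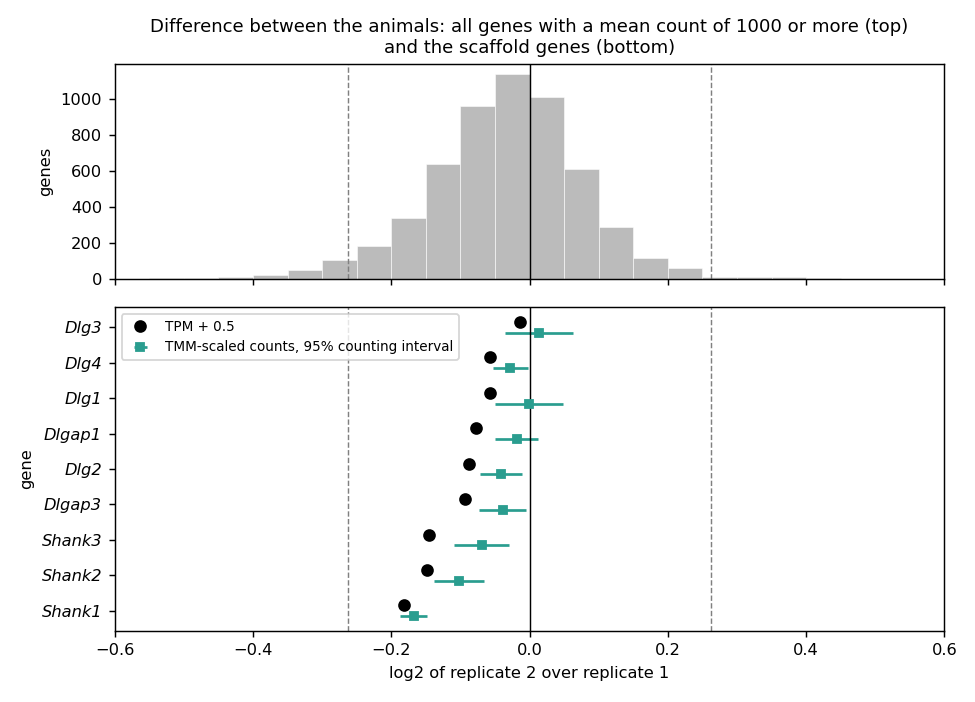
Log2 of replicate 2 over replicate 1 for genes averaging 1000 counts or more (top, number of genes) and for the 9 scaffold genes (bottom), by TPM + 0.5 and by TMM-scaled counts with 95% counting intervals. Dashed lines mark 1.2-fold, and all 9 genes lie between them, with Shank1 lowest at -0.18.

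Of the marker lists for other cells and states, 4 moved with the animals throughout. All 6 oligodendrocyte genes were higher in replicate 2, with sums of 867.2 and 1160 TPM, and all 4 choroid plexus genes were higher, with sums of 21.8 and 197.8 TPM, mostly Ttr. All 6 immediate early genes, which respond to neuronal activity, were lower in replicate 2, with sums of 495.6 and 287.7 TPM, and all 4 red blood cell genes were lower, with 987.2 and 690.3 TPM. No gene of these 4 lists stood at 0 in either library. Glutamatergic and GABAergic neuron genes had 0 of 6 and 0 of 3 over 1.2-fold apart, and astrocyte, microglia and endothelium genes 0 of 5, 0 of 4 and 0 of 3. Of all genes averaging 10 counts or more 19.9% were that far apart, and of those averaging 1000 or more 4.23%. Of the cerebellar genes Cbln1 was over 1.2-fold higher in replicate 2. The part of these shifts in the differences of the scaffold genes was not tested.

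Genes around the scaffolds were read from 6 lists. Of 14 Shank partners, 0 were over 1.2-fold apart in either direction, with Sptan1, a spectrin, highest at 409.8 ± 2.89 TPM (SD, n = 2) and Homer3, of the Homer family that binds Shank proteins, lowest at 3.67 ± 0.488. Their median log2 difference was -0.026, beside -0.031 over all genes averaging 10 counts or more. The medians that follow are read against the same value. Of all genes averaging 10 counts or more, 19.9% were over 1.2-fold apart, as were 4.23% of those averaging 1000 or more. The list counts are read against these shares. Homer3, at 3.33 and 4.02 TPM, came near the limit, with a log2 difference of 0.24 on TPM + 0.5 and 0.0011 in the second file. Of 22 partners of PSD-95 and other Dlg proteins, 0 were lower and 1 higher past 1.2-fold in replicate 2, with a median of -0.060. The one was Nos1, the neuronal nitric oxide synthase that binds PSD-95, at 12.03 and 15.49 TPM, also the lowest of the list. Its log2 difference was 0.35 by TPM and 0.32 in the second file, but 0.14 on TMM-scaled counts, which is within 1.2-fold.

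Of 12 enzymes that add or remove palmitate or phosphate or otherwise regulate the scaffold, 0 were over 1.2-fold apart, with a median of -0.035. The kinase gene Camk2a was highest, at 1263.91 and 1147.36 TPM, and Abhd17c, of a family of depalmitoylating enzymes, lowest at 16.9 ± 0.573. Of 14 other PDZ scaffolds of synapses, 0 were over 1.2-fold apart, from Mpp2 at 75.8 ± 0.148 TPM down to Grip2 at 6.77 ± 0.255, with a median of -0.032. Of 8 scaffold genes of inhibitory synapses, 0 were over 1.2-fold apart, with a median of -0.064. Insyn2a, annotated as Fam196a, was lowest at 8.37 ± 0.226 TPM. Of the 4 relatives of the scaffold genes, 3 averaged 10 counts or more and 0 of them were over 1.2-fold apart.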

How the data were processed

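Per the file lists deposited with the libraries, values are on mm10 with GENCODE M21. The gene table and first transcript file hold the authors' expected counts and TPM under the column names of RSEM, and the second transcript file holds the authors' estimated counts and TPM under those of kallisto, per the file headers. The sources used here name no aligner and no program version. For this hybrid the file lists name only the mm10 reference.

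From the deposited values, transcripts were summed per gene and shares computed. Differences are log2 of TPM + 0.5. Counts were rounded and scaled with edgeR 4.0.16 (TMM) and DESeq2 1.42.0 (size factors), in R 4.3.3. Counting intervals are exact binomial 95% intervals. Other steps used Python 3.11.15, pandas 2.3.3, scipy 1.17.1 and, for the exon alignment, Biopython 1.88. The 26248 numbered rows that name no gene, with 2.3e-05% and 3.0e-05% of counts, were left out. The difference step was tested on simulated counts with counting error only, so that test does not cover variation between animals.

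Named were all 9 genes, transcripts with a mean share of at least 10% in either file, and of each list the highest, the lowest and those over 1.2-fold apart. The highest gene of 2 lists is not reported here. Other transcripts are named where a start, exon or end is described, chosen after their values were seen, as were the start groups and exons. The genes and lists were chosen with earlier results of these data known.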

Additional observations from a re-analysis of the deposited data

How the results depend on the processing

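The number of scaffold genes detected, the number over 1.2-fold apart and the direction of the 10 paralog ratios kept their values in each alternative tried. For the ratios, the alternative with coding transcripts only used the first file. By coding transcripts of the second file, Shank3 was below Shank2 in both animals and Dlgap1 slightly below Dlgap3 in replicate 1. The number lower in replicate 2, 9 by TPM, was 1 with the spike-in total, under which 5.56% of genes averaging 1000 counts or more were lower. The differences that changed sign stood between -0.15 (Shank2) and -0.014 (Dlg3) by TPM. With the spike-in total they became 0.15 for Dlg1, 0.11 for Dlg2, 0.16 for Dlg3, 0.12 for Dlg4, 0.046 for Shank2, 0.079 for Shank3, 0.13 for Dlgap1 and 0.11 for Dlgap3. Dlg3 also changed to 0.013 with TMM, 0.015 with DESeq2 size factors, 0.012 with the library total and 0.049 in the second file, and Dlg1 to 0.00037 with DESeq2 and 0.023 in the second file. The cause was not tested. The spike-in values come from scaled counts and not from TPM, and with them genes averaging 1000 counts or more had a median of 0.16. Levels in the second file divided by its median ratio, and all exon and start group values, were alternatives chosen after seeing the data. No paired analysis was possible because there is 1 group. With 2 animals the SD is itself uncertain, and leaving out 1 of them can never move a mean by 1 SD, so those alternatives say nothing of stability. The leading transcript was the same in both animals for 8 genes by TPM, and for 9 by reads or by the second file.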
